A study of Homo sapiens with 2 samples.

Results

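The promoters of 8 genes that act in G2, mitosis and mitotic exit were examined for E2F1 binding: CCNB1, CCNB2, CDC20, UBE2C, BIRC5, FOXM1, TOP2A and PTTG1. The genes were chosen by name, with earlier results of these data known, so their counts and ranks are a description only. Each was given the peaks that overlapped the 2 kb on either side of its start in hg19. All 8 genes had a peak, and the 8 peaks are a small part of the 28734 E2F1 peaks in the list. The list comes from chromatin immunoprecipitation with sequencing (ChIP-seq) of E2F1 in LNCaP-abl cells, an androgen-independent subline of the prostate cancer line LNCaP. The series holds 2 samples of these cells at passages 61 to 64. The first was precipitated with a pair of E2F1 antibodies and the second is an input without antibody. Both came from cells routinely grown in RPMI free of phenol red, with serum (10%) stripped by charcoal, and held for 3 days without androgen before collection. No treatment or genotype differed between them. Peaks of the E2F1 library were used, so no value below has a replicate. The input was not analysed here and no enrichment over it was computed. Whether the authors called the peaks against the input is not stated. A peak list carries no expression, so the cell type could not be set against marker genes.

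E2F1 is a transcription factor best known for switching on genes of S phase entry and DNA replication. Genes of G2 and mitosis are turned on later in the cycle and are known to depend on a short DNA element, the cell cycle genes homology region (CHR), together with boxes bound by NF-Y. The CHR is bound by the MuvB core complex. With p130 or p107 and E2F4 this core forms the DREAM complex, which holds such genes silent in resting cells, and with B-MYB and later FOXM1 it activates them. Cyclin B then drives entry into mitosis, and the anaphase-promoting complex (APC/C) ends it by marking cyclin B and securin for destruction.

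Every gene start of the 8 lay inside an E2F1 peak. Such a position is rare on the chromosomes, since 0.488% of positions between the first and the last peak of chromosomes 1 to 22, X and Y lie inside a peak. A peak overlapped 2 kb either side of the start in 8 of 8 genes, against 3.93% of positions. The count was also 8 of 8 with 500 bp (1.39% of positions), 1 kb (2.25%), 5 kb (8.63%) and 10 kb (15.4%) either side. It had to be, since each start already lay inside a peak. These shares are of all positions and not of promoters, because the share of all hg19 promoters with a peak was not analysed here. Promoters as a class may hold peaks more often than other positions, so nothing particular to the 8 genes follows from these counts.

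The peaks at these genes were also high in the list. The authors gave each peak a score, which ranks peaks within the list and no source at hand states its scale. All 8 peaks were in the top 10% by score (10.0% of all peaks), and 0.459% of positions have a peak of that rank within 2 kb. The 8 scores had a median of 222 and a range of 124 to 246, against a median of 23.5 and a range of 2.41 to 333 over all peaks. Among all peaks these scores were at percentiles 92.4 to 99.4 (median 98.9). Only 185 peaks scored above the highest of the 8, and 2199 peaks (7.65% of the list) scored at least as much as the lowest of them. Between these limits lay 2014 peaks, or 7.01% of the list. Scores of peaks at other promoters were not analysed here, so high rank is not shown to be particular to these genes.

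**Figure D1:**
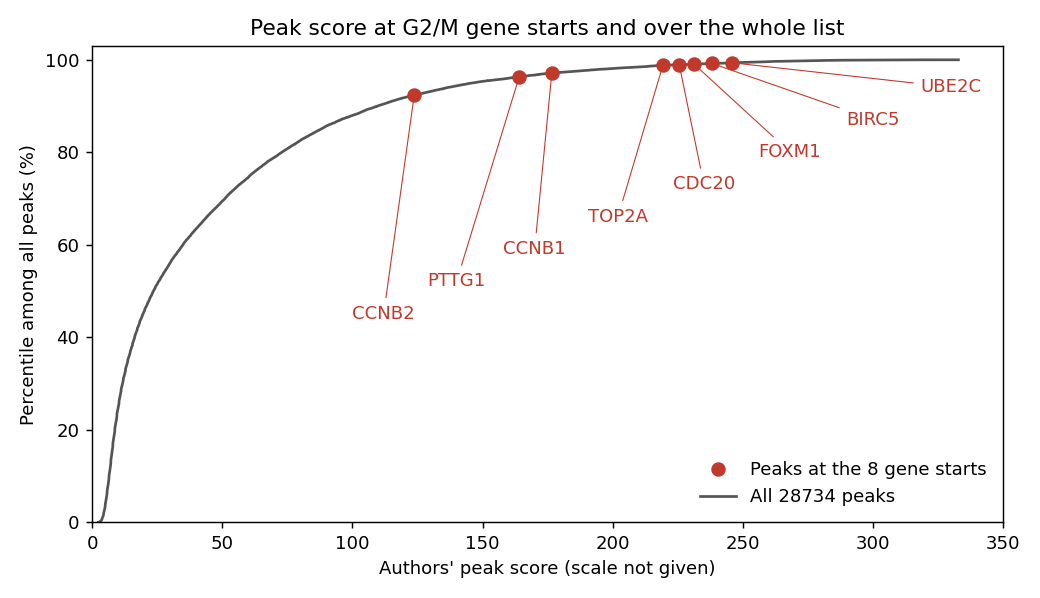
The horizontal axis is the authors' peak score and the vertical axis the percentile among all 28734 peaks. Red points are the peaks at the 8 gene starts and the grey line is the whole list. The 8 points lie between the 92.4 and 99.4 percentiles, with 5 of them packed between scores of 219 and 246.

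The promoter letters of 5 of the 8 genes (CCNB1, CCNB2, CDC20, TOP2A and PTTG1) were matched in RefSeq's windows of assembly GRCh38.p14, which run from 250 bases before to 50 bases after the gene start. UBE2C, BIRC5 and FOXM1 had no entry. The windows belong to another build than the peaks and were not laid over them. They are shown for CDC20 and TOP2A, which had the highest scores among the matched genes, and for the cyclin pair CCNB1 and CCNB2, whose ranks lay far apart. Each reads 5′ to 3′ on the gene's own strand. Capitals mark CCAAT (or its complement ATTGG), the box bound by NF-Y, and TTTGAA (or its complement TTCAAA), the CHR. They also mark TTTAAA, a hexamer close to the CHR that was added after the sequences had been seen. The CDC20 window is chr1:43358731-43359030 on the plus strand, TOP2A is chr17:40417847-40418146 on the minus strand, CCNB1 is chr5:69166900-69167199 on the plus strand and CCNB2 is chr15:59104896-59105195 on the plus strand.
CDC20: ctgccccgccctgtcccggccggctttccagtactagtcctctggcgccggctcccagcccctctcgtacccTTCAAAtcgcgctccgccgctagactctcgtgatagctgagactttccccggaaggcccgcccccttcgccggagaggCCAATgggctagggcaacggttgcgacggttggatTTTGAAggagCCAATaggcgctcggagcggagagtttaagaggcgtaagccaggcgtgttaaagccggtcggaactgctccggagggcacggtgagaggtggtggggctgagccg
TOP2A: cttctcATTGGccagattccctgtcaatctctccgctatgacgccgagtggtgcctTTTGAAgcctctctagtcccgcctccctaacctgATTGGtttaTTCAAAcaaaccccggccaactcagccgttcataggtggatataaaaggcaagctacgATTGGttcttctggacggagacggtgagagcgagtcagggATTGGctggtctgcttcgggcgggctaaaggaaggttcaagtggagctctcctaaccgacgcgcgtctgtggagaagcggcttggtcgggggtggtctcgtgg
CCNB1: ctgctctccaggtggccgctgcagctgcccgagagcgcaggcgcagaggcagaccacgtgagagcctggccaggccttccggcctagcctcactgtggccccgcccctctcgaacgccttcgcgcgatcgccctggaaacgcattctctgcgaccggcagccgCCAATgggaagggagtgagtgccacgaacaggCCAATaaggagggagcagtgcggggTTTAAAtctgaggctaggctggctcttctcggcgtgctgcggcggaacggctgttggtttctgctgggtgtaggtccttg
CCNB2: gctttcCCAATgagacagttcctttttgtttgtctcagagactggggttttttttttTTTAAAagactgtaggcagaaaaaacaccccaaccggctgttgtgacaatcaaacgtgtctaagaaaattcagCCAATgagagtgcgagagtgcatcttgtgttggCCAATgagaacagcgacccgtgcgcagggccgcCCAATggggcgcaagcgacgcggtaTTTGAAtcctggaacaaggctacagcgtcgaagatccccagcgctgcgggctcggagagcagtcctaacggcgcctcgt

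The matched promoters shared CCAAT boxes and CHR-type hexamers. All 5 held CCAAT on either strand, against 39.7% of the 27305 genes in the promoter table. All 5 held it at least 2 times, against 12.9%. The CHR letters TTTGAA were found in 3 of 5 (CCNB2, CDC20 and TOP2A), against 18.2% of all genes. CCNB1 and PTTG1 held TTTAAA instead, so that 5 of 5 had either hexamer, against 27.9% of all genes. Either hexamer together with at least 2 CCAAT matches was found in 5 of 5, against 4.00% of all genes. The pairing and the number of boxes were chosen after the sequences had been seen, and all of these are descriptions of letters, not of bound sites.

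The cyclin promoters had like arrangements of these letters. In CCNB2 the CHR ran from -29 to -24 relative to the gene start, and CCAAT boxes began at -54, -87 and -120, each 33 bp apart. In CCNB1 TTTAAA ran from -30 to -25, and CCAAT boxes began at -55 and -87, 32 bp apart. The hexamer and the nearest CCAAT box were 25 bp apart in both cyclins. CCNB2 also had a CCAAT at -244 and a TTTAAA at -193, which ends a run of T. In CDC20 a CHR began at -65, just upstream of a CCAAT box at -55, with a further CCAAT box at -100 and a reversed CHR at -178. TOP2A carried its CCAAT boxes on the reverse strand, at -53, -93, -160 and -244, with a CHR at -194 and a reversed one at -151. PTTG1 has 2 windows in the table, whose starts lie 55 bp apart. In the upstream of these, TTTAAA began at -29, and CCAAT matches began at -48, -51 and -103. The matches at -51 and -48 overlap on opposite strands in the run CCAATTGG.

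**Figure D2:**
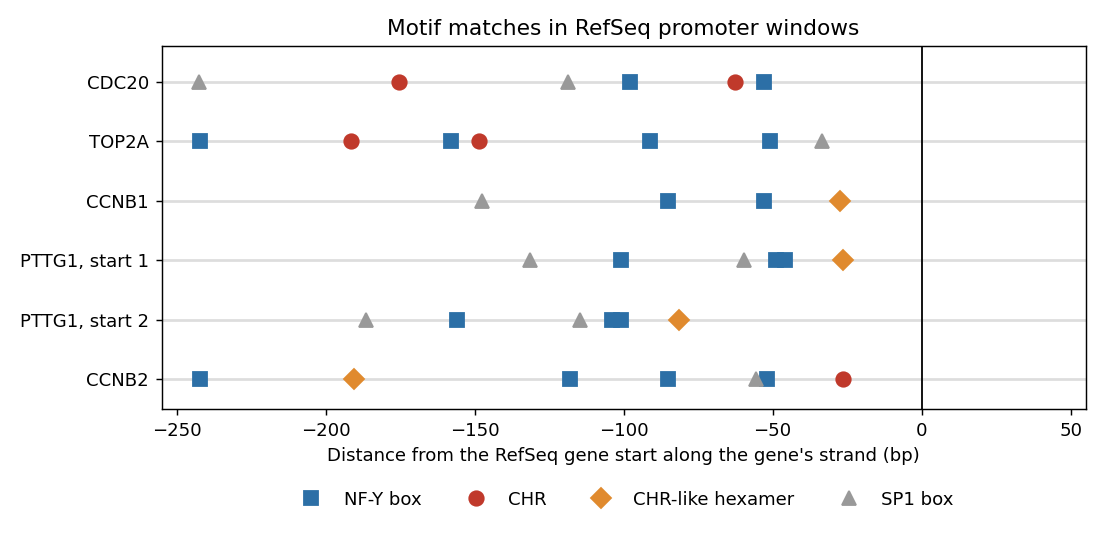
The horizontal axis is the distance in bp from the RefSeq gene start along the gene's strand, and each row is a promoter window, with both windows of PTTG1. Blue squares are NF-Y boxes, red circles the CHR, orange diamonds the TTTAAA hexamer and grey triangles SP1 boxes. In CCNB1 and CCNB2 the hexamer nearest to the start lies 25 bp from an NF-Y box, and all 5 genes hold at least 2 NF-Y boxes.

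The full E2F words that were searched were not in these windows. The octamers TTTGGCGC, TTTGCCGC, TTTCGCGC and TTTCCCGC, read on both strands, were in 0 of 5 promoters, against 3.99% of all genes. The E2F core GGCGGGAA, which can overlap an octamer, was in 0 of 5, against 3.79%. These counts say only that these full words do not occur in the 300 bases searched. With shares this low among all genes, 0 of 5 does not set these promoters apart. Shorter forms were not counted, and the CCNB1 window holds TTCGCGC, which is TTTCGCGC without its first T. GGGCGG, the box of the general factor SP1, was in 5 of 5 on either strand, against 48.3% of all genes, and in CCNB2 it overlapped a CCAAT box. Of a list of 30 other G2 and mitosis genes, 27 were matched. An E2F octamer was in 2 of them (7.41%), the CHR in 19 (70.4%) and at least 2 CCAAT matches in 12 (44.4%). Of these 27 genes, 18 (66.7%) held the SP1 box. TTTGAA or TTTAAA together with at least 2 CCAAT matches was in 10 of them (37.0%). Of a list of 20 S phase genes, 17 were matched. An E2F octamer was in 13 of them (76.5%), the CHR in 1 (5.88%) and at least 2 CCAAT matches in 9 (52.9%). Repeated CCAAT matches were thus not particular to G2 and mitosis genes. The SP1 box was in 12 of these 17 (70.6%), and the pairing of hexamer and CCAAT matches in 2 (11.8%). GC content of the 5 promoters had a median of 55.7%, against 58.3% over all genes in the table.

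Among the regulators, FOXM1 encodes the forkhead factor that activates late G2 genes. Its peak spanned chr12:2985841-2986859 (hg19, as for all peaks below) and was the widest of the 8 at 1019 bp. It scored 231, rank 276 of all peaks from the top (percentile 99.0). FOXM1 is read from the minus strand, and the peak reached 538 bp upstream and 480 bp downstream of the start. RHNO1, a gene of the replication stress response known to start next to FOXM1 and to be read the other way, overlaps FOXM1 in the GRCh38.p14 gene table. Where RHNO1 starts in hg19 was not analysed here, so whether the peak covers both starts was not tested.

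The B-type cyclins, which activate CDK1 for entry into mitosis, had ranks far apart. The CCNB1 peak, chr5:68462508-68463345, scored 177 (rank 822, percentile 97.1) and was 838 bp wide. The CCNB2 peak, chr15:59397083-59397943, scored 124 (rank 2199, percentile 92.4), the lowest of the 8, and was 861 bp wide. Their widths were thus nearly equal while their ranks lay far apart. The score difference has no replicate error to set it against.

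The genes that act with the APC/C were spread over the order of scores. UBE2C is the ubiquitin-conjugating enzyme that starts ubiquitin chains for the APC/C. Its peak, chr20:44440849-44441668, scored 246, the highest of the 8 (rank 186, percentile 99.4), and was the third highest of 835 peaks on chromosome 20. CDC20, the activator that brings substrates to the APC/C at anaphase, had a peak at chr1:43824152-43824922 with a score of 226 (rank 308, percentile 98.9). PTTG1 encodes securin, the APC/C substrate that restrains separase until anaphase. Its peak, chr5:159848549-159849232, scored 164 (rank 1058, percentile 96.3) and was the narrowest of the 8 at 684 bp.

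The remaining genes act on mitotic chromosomes. BIRC5 encodes survivin, a subunit of the chromosomal passenger complex, and its peak at chr17:76210037-76210804 scored 238 (rank 230, percentile 99.2). TOP2A encodes the topoisomerase that untangles sister DNA, and its peak at chr17:38573889-38574709 scored 219 (rank 347, percentile 98.8). Both lie on chromosome 17, where they ranked 17 and 21 of 1624 peaks.

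In order of score the genes were UBE2C, BIRC5, FOXM1, CDC20, TOP2A, CCNB1, PTTG1 and CCNB2. The first 5 held ranks 186 to 347 among all peaks, and the last 3 held ranks 822 to 2199. With 1 library, no spread is known for any score, so neighbours in this order cannot be called different. The same order of the first and the last gene held among the peaks of each gene's own chromosome, where percentiles ran from 91.7 for CCNB2 to 99.8 for UBE2C.

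Wider peaks of the list also score higher, so the 8 peaks were ranked among peaks of like width as well, where their percentiles were lower. The 8 peaks were 684 to 1019 bp wide, with a median of 821 bp, against 418 bp over all peaks, and lay between the 75.4 and 93.8 percentiles of width. Among peaks within 10% of its own width, FOXM1 had a percentile of 97.8, UBE2C 97.1, BIRC5 96.1 and TOP2A and CDC20 95.1 each. PTTG1 was at 90.5, CCNB1 at 89.5 and CCNB2 at 77.9. Each of the 8 therefore still scored above most peaks of its width, whose median scores were 66.5 to 74.7.

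**Figure D3:**
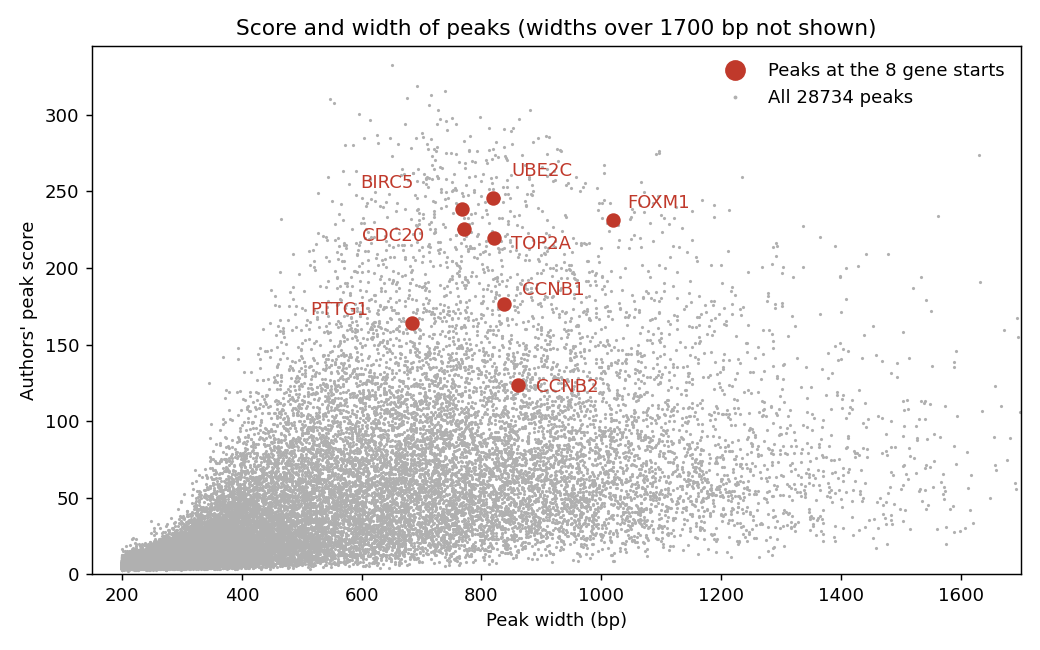
The horizontal axis is peak width in bp and the vertical axis the authors' score; red points are the peaks at the 8 gene starts and grey dots all peaks up to 1700 bp. The 8 peaks are 684 to 1019 bp wide, and CCNB2, at a score of 124, lies nearest to the bulk of peaks of its width.

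The peaks sat across the gene starts and not to one side. Their midpoints lay between 97 bp upstream (TOP2A) and 229 bp downstream (CCNB2), with a median of 14.5 bp downstream. More of the peak lay downstream of the start in 5 genes, UBE2C, BIRC5, CCNB1, PTTG1 and CCNB2. More lay upstream in FOXM1, CDC20 and TOP2A. The UBE2C peak was almost centred, with 406 bp upstream and 413 bp downstream. The most uneven was that of CCNB2, with 201 bp upstream and 659 bp downstream, so that 76.7% of it lay from the start onwards. Without summits in the list, the place of strongest signal within a peak is unknown.

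**Figure D4:**
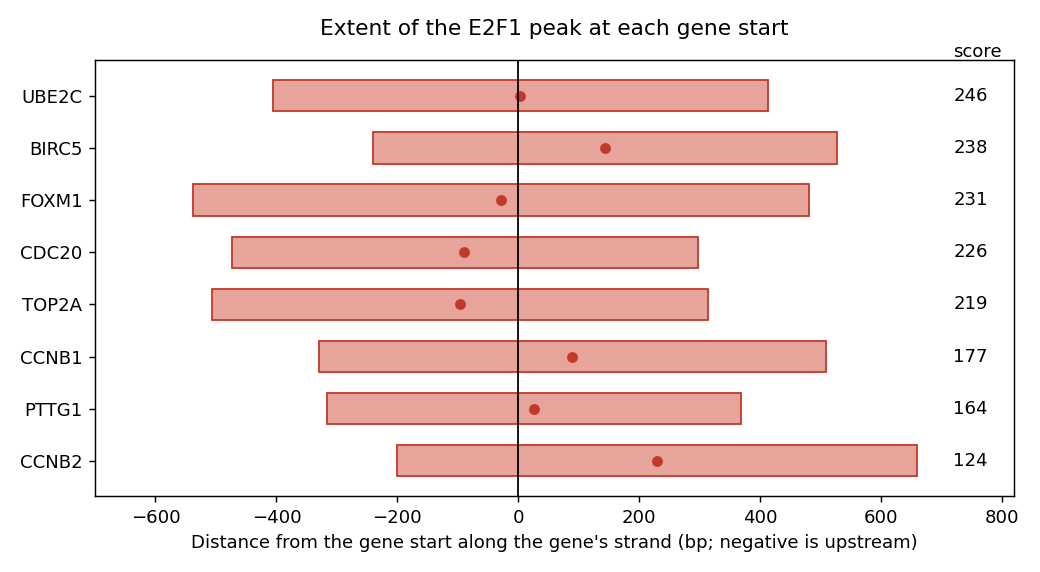
Bars span the E2F1 peak at each gene start, in bp along the gene's strand with the start at 0; points are midpoints and the numbers at the right are scores. All 8 bars cover the start, and midpoints run from 97 bp upstream in TOP2A to 229 bp downstream in CCNB2.

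Close neighbours were about as frequent as for other peaks of the list. Each window of 2 kb held 1 peak and no more. The nearest peak outside a window was the one near PTTG1, 2199 bp upstream of the edge of its own peak, from 159846039 to 159846349 on chromosome 5, with a score of 26.2 (percentile 52.6). CDC20 had 3 further peaks within 10 kb, with scores of 66.9 upstream and 17.2 and 40.7 downstream. The other 6 genes had none within 10 kb, and the same held for 61.1% of nuclear peaks and 68.2% of those in the top 10% by score, counted from peak midpoints. CCNB2 had none within 50 kb, and its nearest neighbour, 52578 bp downstream, scored 6.09. The gap to the nearest other peak had a median of 17239 bp for the 8 peaks, against 16101 bp over nuclear peaks.

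Within 50 kb of the starts, 19 other peaks were found, with a median score of 37.5, of which 3 were in the top 10%. Each of the 3 scored above the peak at the gene start itself. Near BIRC5 such a peak lay from 76182867 to 76183629 on chromosome 17, midpoint 27029 bp upstream, and scored 269. AFMID is the next protein-coding gene on that side in the gene table. Genes beyond it were not looked up, so this peak is not assigned to AFMID. Near PTTG1 the peak from 159826677 to 159827361 on chromosome 5 lay 21846 bp upstream and scored 207. The next protein-coding gene on that side is SLU7, a splicing factor gene read from the minus strand, so its start faces PTTG1. The weaker peak scoring 26.2 is on the same side and nearer to PTTG1, so the stronger peak is not assigned to SLU7. Near CCNB1 the peak from 68485045 to 68485803 on chromosome 5 lay 22587 bp downstream and scored 187, on the side of CENPH, a kinetochore gene. Where these neighbours start in hg19 was not analysed here. At the other 5 genes the peak at the start was the highest within 50 kb, as was the case for 47.0% of nuclear peaks and 87.3% of those in the top 10%. At UBE2C, FOXM1 and CDC20 it was the highest within 500 kb, against 8.61% of nuclear peaks and 44.6% of those in the top 10%. For the 8 genes these shares were 62.5% (5 of 8) and 37.5% (3 of 8). With 8 genes chosen by name, no difference from the top 10% peaks follows from these counts. For FOXM1 the nearest top 10% peak lay 1443081 bp away, the farthest of the 8.

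**Figure D5:**
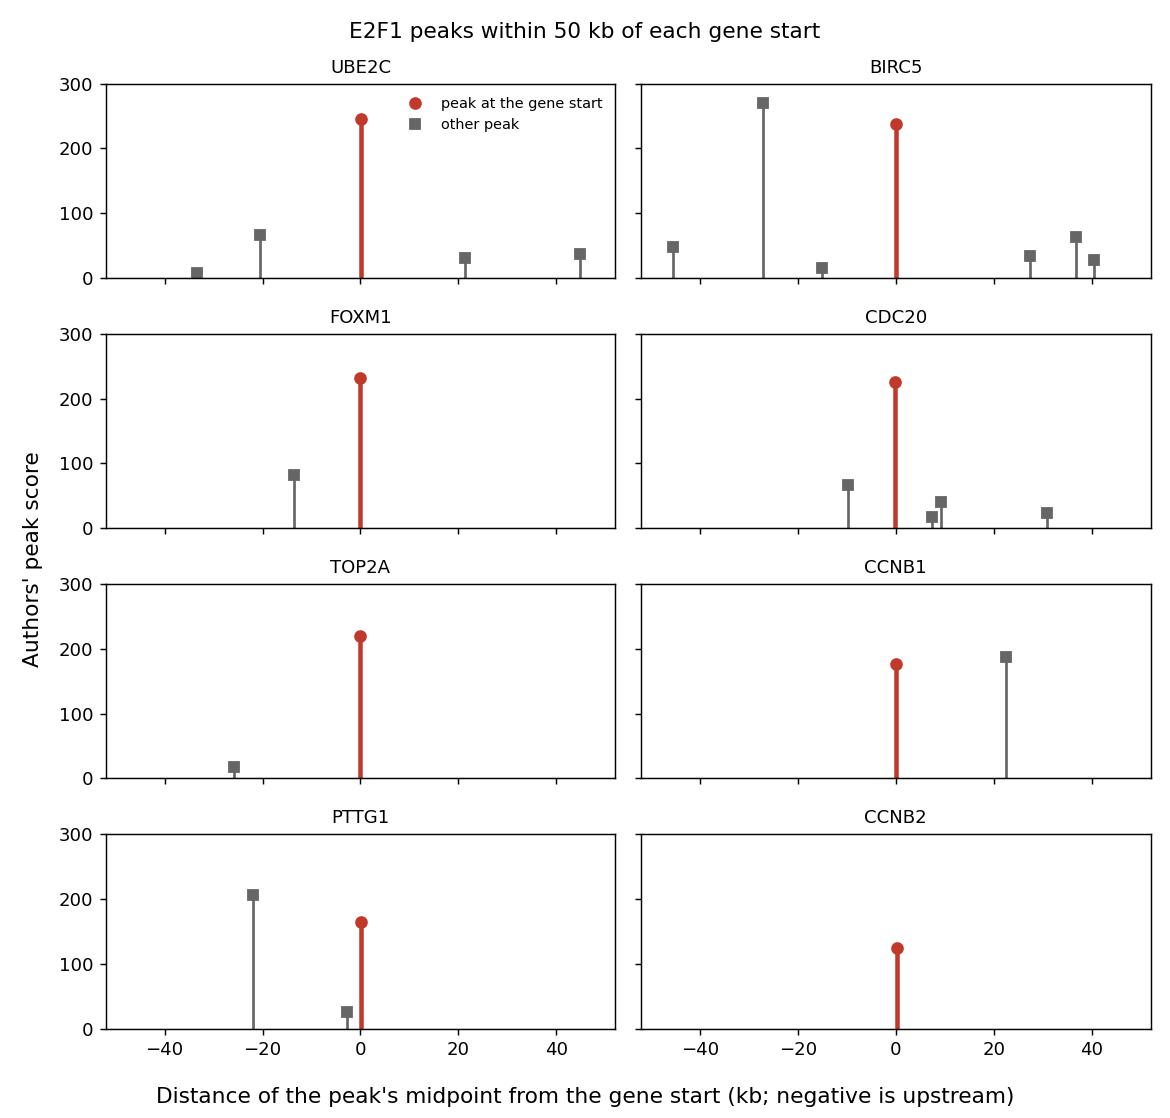
Each panel shows the peaks within 50 kb of a gene start, with the distance of the midpoint in kb on the horizontal axis and the authors' score on the vertical axis. Red stems are the peaks at the starts and grey stems other peaks; a grey stem exceeds the red one near BIRC5, CCNB1 and PTTG1, and CCNB2 has no other peak.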

How the data were processed

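E2F1 ChIP-seq peaks of 1 library of LNCaP-abl cells were analysed. Per the labels' protocols, nuclei were sonicated, complexes were precipitated, and ThruPLEX-FD libraries were sequenced on an Illumina NextSeq. CASAVA 1.6.0, Bowtie and MACS2 2.0.9 with build hg19 are named in the submitters' processing notes. No source used here gives their settings, the peak threshold or the use of the input as control. The deposited list gives position, name and a score per peak, with no reads or summits, so depth is unknown. The score was taken as deposited and used to describe and rank peaks within the list. Shares of peaks that stand alone or are the highest nearby, over all nuclear peaks, were a later addition, made with the data in view.

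Starts in the list were read as 0-based and are printed 1-based. Gene starts came with the choice of genes and were not checked against an hg19 annotation. The strand of CCNB1, CCNB2, CDC20, TOP2A and PTTG1 is RefSeq's, and that of UBE2C, BIRC5 and FOXM1 is textbook knowledge. A percentile is the share of peaks scoring no higher. Members, lists and motifs were chosen with earlier results of these data known, and all 8 genes are named, as are peaks within 50 kb that a sentence turns on. No test was run, because 1 library gives no replicate error. The share of positions near a peak and the search for TTTGAA and reversed CCAAT were checked on simulated data. Python 3.11.15, pandas 2.3.3, numpy 2.4.6, scipy 1.17.1 and matplotlib 3.10.9 were used. Alternatives were other windows, stricter score limits, other peaks for the percentile and the strand of motifs.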

Additional observations from a re-analysis of the deposited data

How the results depend on the processing

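All 8 genes kept a peak under the 7 alternatives of window, score limit and overlap. These alternatives could not have changed the count. All 8 starts lay inside peaks of the top 10%, with midpoints no more than 229 bp away. The median percentile of 98.9 was 98.6 among peaks of the same chromosome, 95.1 among peaks of like width and 88.6 among the top 10% of peaks, an alternative chosen after seeing the data. It did not move when the nearest peak of a window was taken, since each window held 1. The CHR count of 3 of 5 promoters became 5 when TTTAAA was allowed, also chosen after seeing the data. The SP1 box count of 5 became 2 on the gene's own strand, while that of CCAAT was 4 and those of the CHR and both E2F motifs were the same. Width-matched percentiles were lower for each of the 8 genes, most of all for CCNB2. No paired analysis was possible because peaks of a single library were used, and for the same reason no replicate could be left out. Depth is unknown, and the input was not analysed here.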
